A study of Danio rerio with 5 samples.

Results

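Circular RNAs (circRNAs) of the segmentation-stage zebrafish embryo, at 24 hours post fertilization (hpf), were compared with those of both flanking stages in the series, gastrula at 8 hpf and the stage labelled throat at 48 hpf. The compared set held 609 circRNAs, those with 10 or more back-splice junction reads summed over the 3 libraries, of 6268 listed in at least 1 of the 3 and 9559 in the whole series. A circRNA was called higher where its level at 24 hpf was at least 2-fold above both flanking levels, and lower where it was at least 2-fold below both. All embryos were labelled wild type (WT), of the strain the labels spell Tubingenz, staged by morphology and with no treatment. Each stage had 1 library of ribosomal RNA-depleted total RNA, and the sources used here do not give the number of embryos behind each. Libraries of blastula (4.5 hpf) and of the stage labelled incubation (72 hpf) took no part in the calls and were used to describe the called circRNAs.

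A circRNA is a closed loop made by back-splicing, in which the spliceosome joins the end of a downstream exon to the start of an upstream one. It lacks free ends, is not degraded by exonucleases as linear RNA is, and can outlast the linear transcripts of its gene. It is recognised by reads that cross the back-splice junction, and its position is given by the genome coordinates of that junction. During gastrulation the germ layers form, and during segmentation the somites, the forerunners of the trunk muscles and spine, and the first organ rudiments appear. Host genes are not annotated in the tables, so circRNAs are named by chromosome, start and end as deposited, on a genome build that the sources used here do not give.

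Levels were compared per sequencing depth, as SRPBM, the authors' score, which within each library was the junction read count times 1 constant. The depth recovered from these constants was 76.5, 64.7 and 65.5 megaunits (1e+06 units of that depth) at 8, 24 and 48 hpf. The 24 hpf library had fewest junction reads, 9563, while the 8 and 48 hpf libraries had 24580 and 15850, or 148 per megaunit beside 321 and 242. Much of the gap to 8 hpf came from 7 circRNAs of 1 unplaced scaffold, KN150127.1. They had 8454 reads at 8 hpf, 4 at 24 hpf and 1585 at 48 hpf. The share of junction reads on the 609 circRNAs was 66.2%, 59.3% and 58.3% at 8, 24 and 48 hpf. The lowest count in any table was 2 reads. An unlisted circRNA was taken as 0 in the calls and may have had 1 read. With 1 library per stage no difference has a replicate check, no p-value was computed, and the intervals on ratios cover counting error only. Fewer cells that make a circRNA and less of it per cell cannot be told apart in whole-embryo RNA.

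Of the 609 circRNAs, 53 (8.70%) were higher at 24 hpf than at both flanks and 76 (12.5%) were lower than both. The other 480 lay between the flanks, within 2-fold of one of them, or were unlisted at 24 hpf and at a flank. These shares are also the background of the comparison, and since the calls use the same counts, nothing further is read from them. The rule itself makes the higher set's share of reads large at 24 hpf and the lower set's small. The higher circRNAs took 0.928%, 17.7% and 1.29% of all junction reads at 8, 24 and 48 hpf. Of their 1696 reads at 24 hpf, the members with most had 264, 202, 198 and 110. The lower circRNAs took 20.7%, 0.324% and 4.50%, and at 8 hpf a single member had 4398 of the set's 5080 reads. The 95% intervals of the ratios to both flanks excluded 1 for 33 of the 53 higher circRNAs and for 11 of the 76 lower ones, with unlisted counts set at 1 read. The 33 include 23 listed at 24 hpf only, for which this outcome was fixed. To enter, they needed 10 or more reads at 24 hpf, and 10 against 1 always excludes 1. The 2 counts therefore do not compare how firm the sets are.

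**Figure D1:**
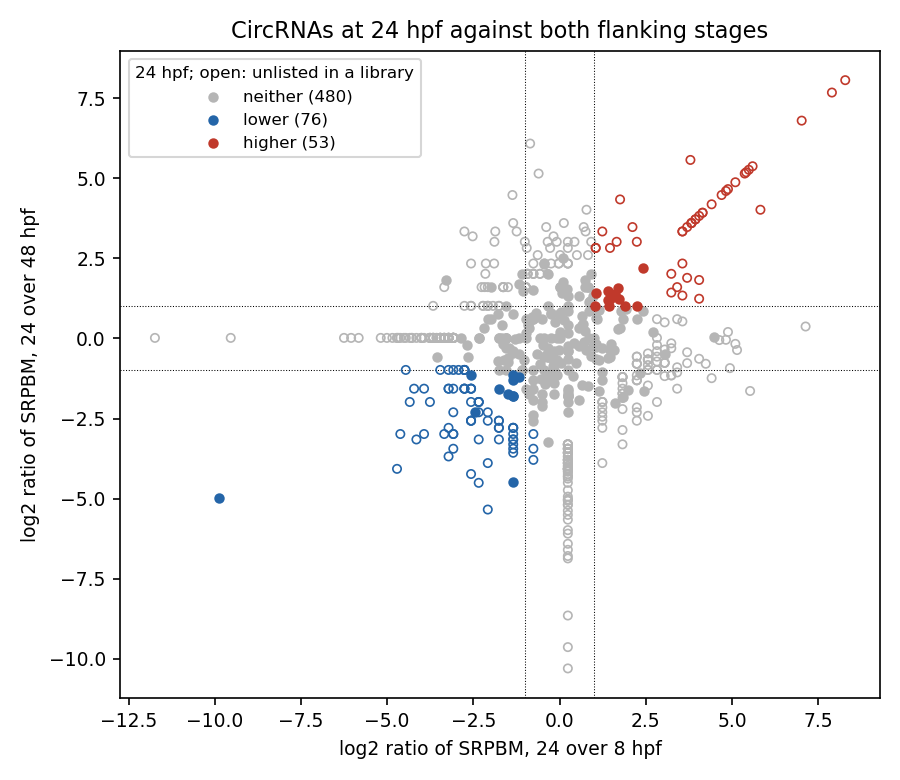
Each point is 1 of the 609 circRNAs, with the log2 ratio of SRPBM at 24 over 8 hpf on the horizontal axis and at 24 over 48 hpf on the vertical axis; for plotting, an unlisted count was set at 1 read, and open points mark circRNAs unlisted in at least 1 of the 3 libraries. Dotted lines mark a 2-fold difference. The 53 higher circRNAs lie at the upper right, the 76 lower ones towards the lower left, and most points of both sets are open. With unlisted counts at 1 read, 64 of the 76 lower ones lie beyond both lines.

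The sets differed in how they were made up, in part because of the rule. A lower call needed reads at both flanks, and a higher call needed reads at 24 hpf. A circRNA listed at 24 hpf only was thus always higher, and one listed at both flanks but not at 24 hpf always lower. Of the higher circRNAs, 23 were listed at 24 hpf only, 9 were also listed at 8 hpf, 9 also at 48 hpf, and 12 at all 3 stages. Of the lower circRNAs, 65 were listed at both flanks and not at 24 hpf, and 11 had reads at all 3 stages. Most calls rested on few reads, with under 20 reads over the 3 libraries for 30 of the 53 higher and 53 of the 76 lower circRNAs, against 359 (58.9%) of all 609. The split also depended on the scaling. When levels were scaled to the total of junction reads of each library, which moves all log2 ratios by 1.12 against 8 hpf and by 0.71 against 48 hpf, 112 were higher and 67 lower. The higher share of the calls was 41.1% per depth and 62.6% per junction read total. Those totals include the reads of scaffold KN150127.1. With that scaffold left out, a setting chosen after the data were seen, 83 were higher and 67 lower, a higher share of 55.3%. That scaling raises every ratio of 24 hpf to a flank, so none of the 53 higher circRNAs could lose its call. Of the 76 lower ones, 67 stayed lower.

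The circRNA with most reads at 24 hpf was listed at no other stage at its exact position. It lay on chromosome 5, 31690298 to 31707047, with 264 reads (27.2 SRPBM) at 24 hpf and none listed in the other 4 libraries. Set against 3 reads in each unlisted library, it was at least 104-fold higher than at 8 hpf and at least 89.1-fold higher than at 48 hpf. These bounds hold for that position. In the same part of chromosome 5, the circRNA at 31666036 to 31700665 had 39 reads at 24 hpf, 123 at 48 hpf and 408 at 72 hpf, and so was not among the higher ones. All circRNAs that overlapped the 24 hpf one by at least 50% of both spans were summed. The sums were 0, 0, 264, 0 and 2773 reads at 4.5, 8, 24, 48 and 72 hpf. By that measure no read was listed at 8 or 48 hpf, and far more were at 72 hpf. Longer circRNAs that overlapped it by less of their own span did have reads at 48 hpf. They were 31666036 to 31700665, with the 123 reads above, and 31669424 to 31703967, with 20 reads. A shorter neighbour, 31608475 to 31624343, had 36 reads at 24 hpf only, while circRNAs overlapping it by the same measure had 216 reads at 72 hpf. The longer 31616110 to 31655894, which overlapped it in part, had 17 reads at 48 hpf.

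Chromosome 3 held the second and the third of the higher circRNAs, ranked by the interval bound nearest to 1. The circRNA at 31968704 to 31994174 had 202 reads at 24 hpf and 254 at 72 hpf, with none listed at 4.5, 8 or 48 hpf. Its level at 24 hpf was 20.8 SRPBM, at least 79.6-fold above 8 hpf and at least 68.2-fold above 48 hpf, and at 72 hpf it was 31.1 SRPBM. At its exact position it was thus listed at alternate stages, with no read listed at 48 hpf between them. The shorter 31988055 to 32004070, which overlapped it in part, had 36 reads at 8 hpf and 3 at 24 hpf. The third in rank, at 29737371 to 29738128, spans 758 bp and had 110 reads, all at 24 hpf. It was at least 43.3-fold above 8 hpf and at least 37.1-fold above 48 hpf.

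Lower in that ranking, counts at 24 hpf were between 29 and 48 reads. On chromosome 23, 45486471 to 45576513 had 22, 0, 41, 0 and 10 reads from 4.5 to 72 hpf, so it was present in the blastula, unlisted at both flanks and present again at 72 hpf. Chromosome 5 held a further pair in tandem, 64309015 to 64322929 with 38 reads and 64325555 to 64343956 with 29 reads, neither of them listed at another stage. On chromosome 15, 47268661 to 47275527 had 35 reads, also at 24 hpf only. A few reads at a flank were present for the remaining 2 of the first 10. On chromosome 22, 20112062 to 20121516 went from unlisted at 8 hpf to 48 reads at 24 hpf and 3 at 48 hpf, 16.2-fold above 48 hpf (95% interval 5.22 to 81.3). On chromosome 8, 16653399 to 16666779 had 4 reads at 8 hpf, 47 at 24 hpf and none listed at 48 hpf, 13.9-fold above 8 hpf (5.08 to 53.1).

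The 12 higher circRNAs listed at all 3 stages give ratios that are not bounds. Chromosome 11, 43496943 to 43559737, had 72 reads at 8 hpf, 198 at 24 hpf and 68 at 48 hpf. At 20.4 SRPBM it was 3.25-fold above 8 hpf (2.47 to 4.32) and 2.95-fold above 48 hpf (2.23 to 3.94), the firmest of this group. With 57 reads at 4.5 hpf and 83 at 72 hpf, it stood above all 4 other libraries. Chromosome 13, 51515225 to 51523661, had 57, 100 and 38 reads, 2.07-fold above 8 hpf (1.48 to 2.92) and 2.66-fold above 48 hpf (1.82 to 3.98). A much longer circRNA that overlaps it, 51518779 to 51663458, had 52, 44 and 44 reads at the same stages, so the pair of junctions in this stretch of chromosome 13 followed different courses.

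A peak between the flanks was not always a peak of the whole series. The circRNA of chromosome 16, 32233692 to 32234165, a short one of 474 bp, had 389 reads at 4.5 hpf, then 16, 36 and 13 at 8, 24 and 48 hpf, and 5 at 72 hpf. It was 2.66-fold above 8 hpf (1.44 to 5.13) and 2.80-fold above 48 hpf (1.45 to 5.76), yet 3.71 SRPBM at 24 hpf against 39.3 at 4.5 hpf. Chromosome 1, 58159698 to 58162237, had 13, 30 and 15 reads, 2.73-fold above 8 hpf (1.38 to 5.69) and 2.02-fold above 48 hpf (1.06 to 4.05), and its 3.09 SRPBM at 24 hpf stood beside 3.06 at 72 hpf. The fifth by rank, on chromosome 3, 19342746 to 19367681, had 2, 9 and 2 reads, and its interval against 48 hpf included 1 (0.943 to 43.3). Just inside the 2-fold limit lay chromosome 11, 742410 to 763804, with 7, 22 and 11 reads (2.02-fold), and just outside it chromosome 19, 20635668 to 20646935, with 3, 5 and 2 reads (1.97-fold).

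**Figure D2:**
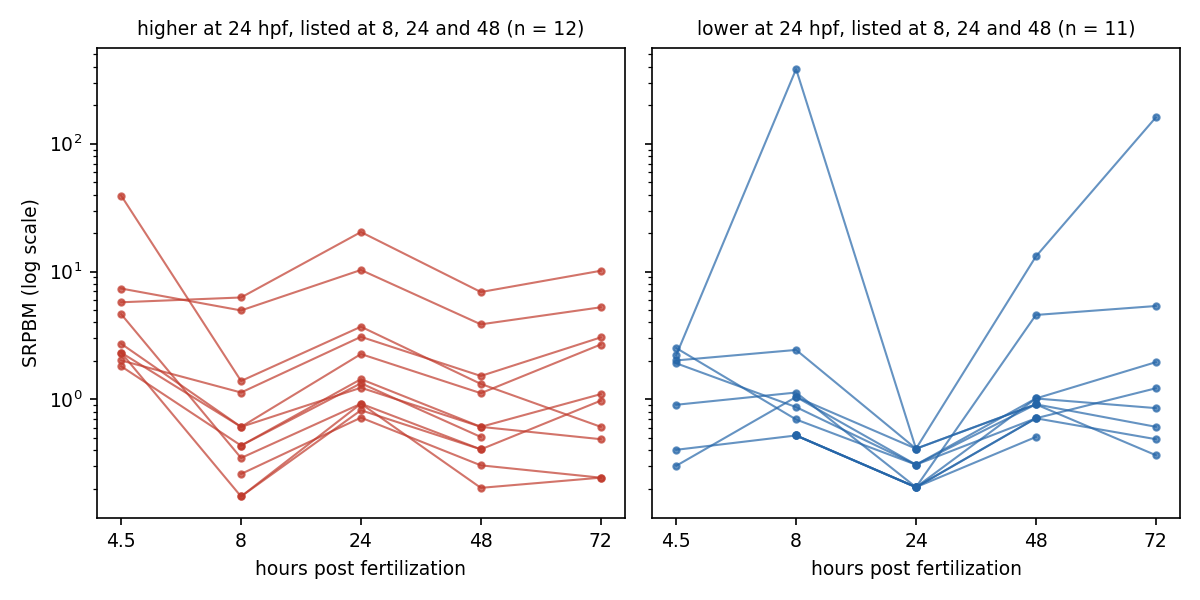
Lines join the SRPBM levels (log scale) of each circRNA listed at 8, 24 and 48 hpf, 12 higher ones on the left and 11 lower ones on the right, over the 5 stages; a stage at which a circRNA was not listed has no point. The higher set is led by the chromosome 11 circRNA at 20.4 SRPBM, and in the lower set the scaffold circRNA with 383 SRPBM at 8 hpf stands far above the rest.

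Among the lower circRNAs 1 stood far apart. On the unplaced scaffold KN150127.1, 3657 to 4045 had 22, 4398, 4, 129 and 1312 reads from 4.5 to 72 hpf. Its level went from 383 SRPBM at 8 hpf to 0.412 and then 13.1 at the next stages, so that 24 hpf was 931-fold below 8 hpf (363 to 3417) and 31.9-fold below 48 hpf (12.1 to 119). It was the only one of the scaffold's 7 circRNAs in the compared set to be called, because the other 6 were unlisted both at 24 hpf and at a flank. At 15984 to 16405, for example, 4025 reads were listed at 8 hpf and none at 24 or 48 hpf.

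The next lower circRNAs were not listed at 24 hpf and had moderate counts at both flanks. Chromosome 15, 46764879 to 46940981, with a span of 176103 bp, had 197, 31, 0, 17 and 58 reads from 4.5 to 72 hpf. Against 3 reads at 24 hpf, it was at least 8.75-fold lower than at 8 hpf and at least 5.60-fold lower than at 48 hpf. The 24 hpf library was thus the only one of the 5 without it. Chromosome 21, 8393705 to 8394005, with 8, 18, 0, 8 and 5 reads, likewise missed 24 hpf only, and was at least 5.08-fold below 8 hpf and at least 2.63-fold below 48 hpf. Chromosome 7, 9849226 to 9871640, had 21 reads at 8 hpf and 9 at 48 hpf and was listed at no other stage. It was at least 5.92-fold below 8 hpf and at least 2.96-fold below 48 hpf.

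The remaining named lower circRNAs had 8 to 29 reads at each flank and none listed at 24 hpf. They lay on chromosome 9 (28457670 to 28460457, 11 and 13 reads at 8 and 48 hpf), chromosome 23 (31506890 to 31507303, 10 and 11 reads) and chromosome 22 (20115463 to 20127588, 29 and 8 reads). The others were on chromosome 10 (42862864 to 42863434, 12 and 8 reads), chromosome 14 (9295287 to 9308454, 10 and 8 reads) and chromosome 5 (65646893 to 65655991, 10 and 8 reads). Their bounds against the nearer flank were between 2.63-fold and 3.10-fold. For most of the lower set the depth could not carry even that. With unlisted counts set at 3 reads, 21 of the 76 were still 2-fold below both flanks, and with 1 read 64 were.

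For the 11 lower circRNAs with reads at 24 hpf, the count there was 2 to 4 reads. Chromosome 17, 50188956 to 50189117, with a span of 162 bp, had 13, 2 and 10 reads and was 5.50-fold below 8 hpf (1.25 to 50.2) and 4.94-fold below 48 hpf (1.05 to 46.4). Beside the scaffold circRNA, it was the only one of the 11 whose intervals against both flanks excluded 1. Chromosome 1, 587065 to 592060, had 12, 3 and 9 reads, and chromosome 7, 10548677 to 10559052, had 10, 3 and 10. Chromosome 10, 40966768 to 40981109, had 28, 4 and 9 reads, 5.92-fold below 8 hpf (2.07 to 23.2) and 2.22-fold below 48 hpf (0.620 to 9.88). At the same 2.22-fold below 48 hpf lay chromosome 24, 33587589 to 33686909, with 12, 4 and 9 reads. Both were nearest to the 2-fold limit among the lower circRNAs with reads at all 3 stages, and chromosome 16, 2749115 to 2754589, with 7, 2 and 4 reads (1.98-fold), lay just outside. Scaled to junction read totals, the circRNAs on chromosomes 1, 7 and 10 were no longer 2-fold below the nearer flank, with log2 ratios of -0.64 on chromosome 1, -0.38 on chromosome 7 and -0.44 on chromosome 10, against -1.57, -1.50 and -1.15 per depth. With TMM scaling, the chromosome 10 ratio was -0.83.

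CircRNAs that were abundant at 24 hpf were not all higher there. Chromosome 15, 47009568 to 47014874, had the fourth highest count at 24 hpf, 42, 123 and 69 reads at 8, 24 and 48 hpf. It was 3.46-fold above 8 hpf (2.42 to 5.04) but 1.80-fold above 48 hpf (1.33 to 2.46), which is under the limit. Chromosome 1, 58724086 to 58783408, with 119 reads at 24 hpf and 93 at 48 hpf, was at least 46.9-fold above 8 hpf and 1.30-fold above 48 hpf (0.979 to 1.72). It was thus first listed at 24 hpf, and its interval between 24 and 48 hpf included 1.

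Of the 210 circRNAs listed at all 3 stages, 19 kept within 1.5-fold over them. The one with most reads was chromosome 11, 44020549 to 44026831, at 14.3, 10.3 and 11.8 SRPBM (164, 100 and 116 reads). Several of the steady ones were very long. Chromosome 16, 55075739 to 55381521, had 93, 58 and 87 reads, and chromosome 2, 2776735 to 3075246, had 43, 40 and 27. Chromosome 23, 36354198 to 36832487, had 55, 34 and 34 reads, and the steadiest of the 5 named was chromosome 13, 51518779 to 51663458, with 4.53, 4.53 and 4.48 SRPBM. Over the 210, the median log2 ratio per depth of 24 over 8 hpf was -0.10 (quartiles -0.98 and 0.83). That of 24 over 48 hpf was -0.18 (-0.98 and 0.69). The medians were thus close to level, while the ratios of individual circRNAs spread widely. Being listed at 24 hpf was needed to be among the 210, which leaves out the 65 listed at both flanks only. Scaled to junction read totals, which include the reads of scaffold KN150127.1, the medians were 1.02 and 0.53.

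The higher circRNAs spanned more of the genome than the lower ones. The median span from start to end, introns included, was 13915 bp for the 53 higher (95% interval 6867 to 21395), 5222.5 bp for the 76 lower (2927 to 9099) and 5664 bp for all 609 (4877 to 6606). The intervals of the higher and the lower set overlap, and they treat circRNAs as independent, which those of 1 locus are not. The middle 50% of spans ran from 3482 to 30312 bp in the higher set and from 847 to 13426 bp in the lower set. Spans under 500 bp made up 9.43% of the higher and 17.1% of the lower circRNAs, against 10.2% of all. Spans over 100 kb made up 9.43%, 3.95% and 6.57%.

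The longer spans lay mainly among the higher circRNAs that no flank listed. The 23 listed at 24 hpf only had a median span of 16750 bp (6867 to 42534), and the 30 also listed at a flank had one of 8995 bp (3935 to 21395). For comparison, the 75 listed at 8 hpf only had a median of 7927 bp (3797 to 13117), and the 61 listed at 48 hpf only had 3144 bp (2155 to 10712). By size, the share called higher was 8.06% of the 62 circRNAs under 500 bp, 3.37% of the 89 from 500 to under 2000 bp, 7.11% of the 239 from 2000 to under 10000 bp, 11.6% of the 155 from 10000 to under 50000 bp and 15.6% of the 64 from 50000 bp up. The share did not rise steadily, since that under 500 bp was above the next 2. The share called lower was 21.0%, 8.99%, 11.7%, 14.8% and 6.25% over the same classes. It was greatest below 500 bp and least from 50000 bp up, but rose in between, so it did not fall steadily with size. Part of the long tail came from a few places. The 53 higher circRNAs formed 47 groups without overlap, and with the circRNA of most reads taken from each the median was 9904 bp, while no lower circRNAs overlapped each other.

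**Figure D3:**
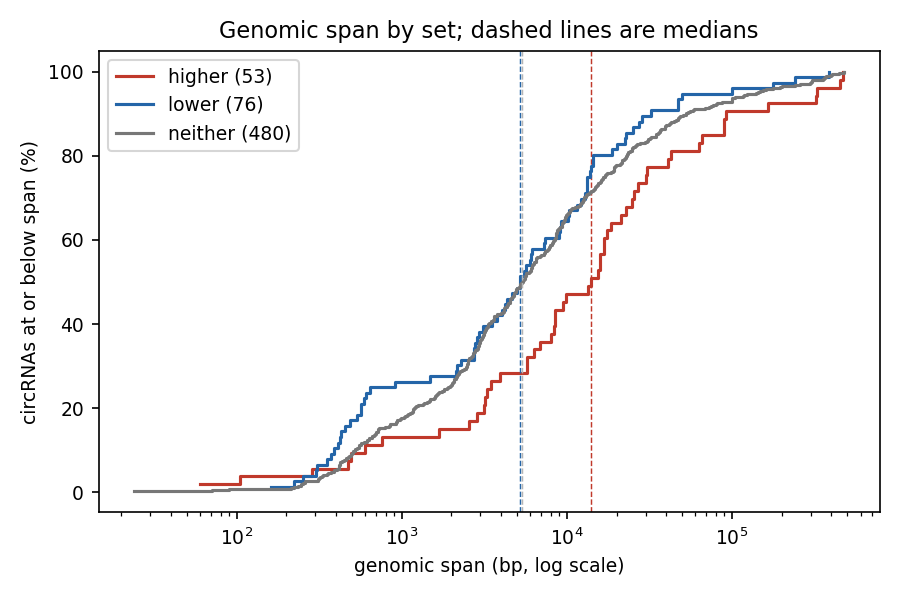
Cumulative share of circRNAs (percent, vertical axis) with a genomic span at or below the value on the horizontal axis (bp, log scale) for the 53 higher, 76 lower and 480 other circRNAs, with dashed lines at the medians. The curve of the higher set runs to the right of the others over most of its length, with its median at 13915 bp against 5222.5 bp for the lower set.

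The longest higher circRNAs included several of very large span with few reads. On chromosome 23, 36354198 to 36824238 (470041 bp) had 12 reads at 24 hpf only, but a junction that shares its start and ends 4 bp earlier, 36354198 to 36824234, had 140, 13, 23, 15 and 20 reads from 4.5 to 72 hpf. On chromosome 17, 640948 to 1093842 (452895 bp) had 46, 4, 9, 4 and 8 reads from 4.5 to 72 hpf, so most of its reads were at 4.5 hpf. On chromosome 12, 16471353 to 16798077 (326725 bp) had 22 reads and on chromosome 22, 9010899 to 9334610 (323712 bp) had 14, both at 24 hpf only. At the other end of the range, the shortest higher circRNA was on chromosome 6, 60017750 to 60017809, with a span of 60 bp and 13 reads, all at 24 hpf.

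By chromosome, the 53 higher circRNAs lay on fewer chromosomes than the 76 lower ones. The sets differ in size, which this comparison does not take into account. Chromosome 5 held 9 of the 53 (17.0%), against 6.40% of all 609, and chromosomes 3 and 12 held 5 each. Most of the 9 lay close together, within 31608475 to 31707047, 64309015 to 64343956 and 69092251 to 69102616. Among them, 31668487 to 31686045, 69092251 to 69100245 and 69092713 to 69102616 were no longer 2-fold above both flanks with reads of overlapping circRNAs added. The count of 9 is therefore not one of separate places along the chromosome. Chromosome 12 had the highest share of its own circRNAs called higher, 5 of 20 (25%), ahead of chromosome 5 with 9 of 39 (23.1%). Chromosomes 1, 22 and 23 each held 4 higher circRNAs. None was called on chromosomes 2, 7, 9, 10, 19, 20, 21 and 25, which held 172 of the 609. With levels scaled to junction read totals, 1 chromosome was without a higher circRNA, and chromosome 5 held 12 of 112 (10.7%), still the most. Those totals include scaffold KN150127.1, and chromosomes were not counted again without it.

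The lower circRNAs were spread over 24 of the 25 chromosomes and 1 scaffold. Chromosomes 7 and 10 held most, with 6 each, which was 30.0% of the 20 circRNAs of chromosome 7 and 21.4% of the 28 of chromosome 10. Chromosome 21 followed, with 5 of 17 (29.4%). Chromosomes 2, 3 and 5 also held 5 each, and on chromosome 3 the sets were equal, with 5 higher and 5 lower of 38. Chromosome 20 had 18 circRNAs and neither a higher nor a lower one, and scaling to junction read totals gave it 2 higher ones. On unplaced scaffolds there were 17 circRNAs, of which 1, that of KN150127.1, was lower and none higher. These counts are small, and no chromosome was tested against the rest.

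**Figure D4:**
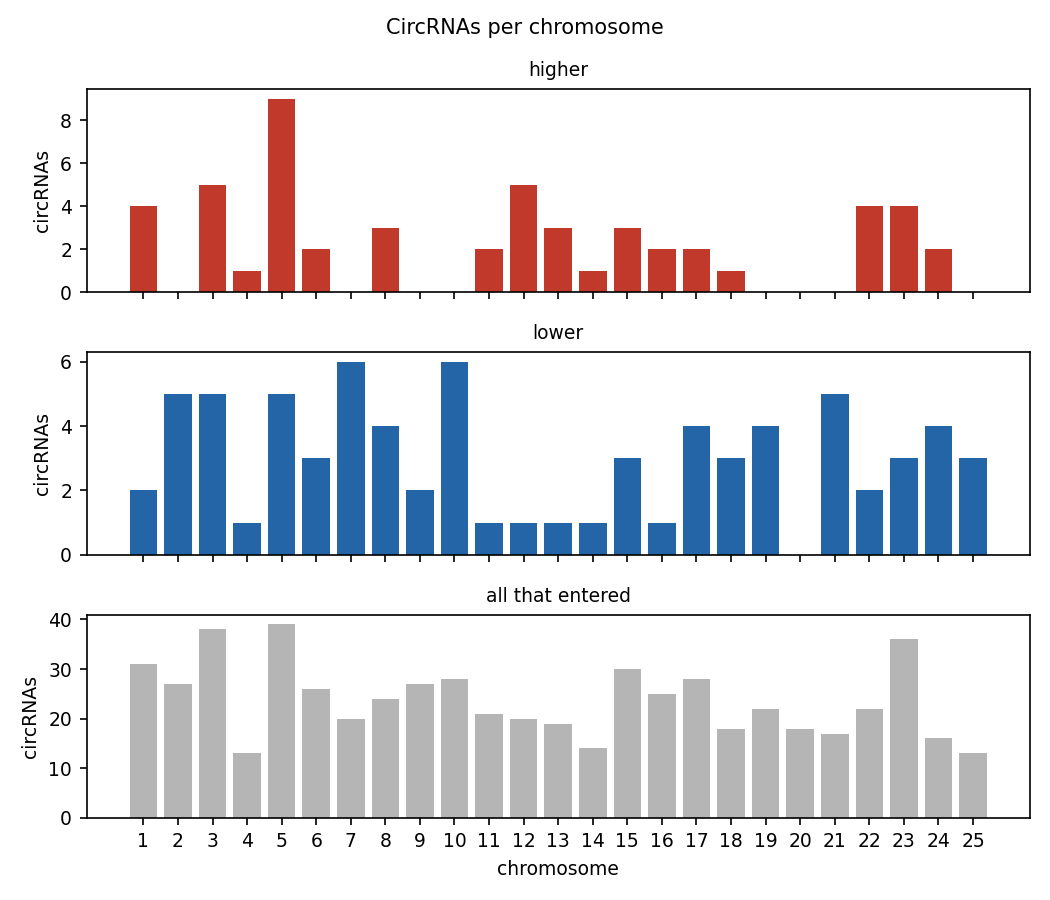
Bars give the number of circRNAs per chromosome that were higher at 24 hpf (top), lower at 24 hpf (middle) and in the compared set of 609 (bottom), with unplaced scaffolds left out. Chromosome 5 has the tallest bar among the higher circRNAs with 9, while the 6 on chromosomes 7 and 10 are the most among the lower ones.

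Some higher circRNAs came as sets from 1 stretch of a chromosome. On chromosome 12, 4 of the 5 lay between 16471353 and 16798077. The circRNAs 16472925 to 16514043 (11 reads at 24 hpf and 3 at 48 hpf) and 16472925 to 16638675 (10 reads at 24 hpf only) shared a start, and the former shared its end with 16497208 to 16514043 (14 and 6 reads). None of the 4 was listed before 24 hpf. The same stretch also held 16570133 to 16753094, which was not called and had 12 reads, all at 48 hpf. On chromosome 23, 3 higher circRNAs of 88838 to 91783 bp overlapped, at 45455913 to 45547695, 45460060 to 45548897 and 45486471 to 45576513, with 25, 20 and 41 reads at 24 hpf. Summed with all circRNAs that overlapped them by at least 50%, these 3 had 55, 12, 95, 2 and 26 reads from 4.5 to 72 hpf. Most of the 95 reads at 24 hpf were the 25, 20 and 41 of the 3 higher circRNAs themselves. The peak of the sum at 24 hpf thus follows from the calls and says nothing of the other overlapping circRNAs.

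Among circRNAs with spans of up to 50 kb, higher and lower ones overlapped in 1 locus, on chromosome 22 from 20112062 to 20127588. There, 20112062 to 20121516 had 0, 48 and 3 reads at 8, 24 and 48 hpf. A junction with the same start that ends 12 bp later, 20112062 to 20121528, had 11 reads at 8 hpf and none listed after. The third, 20115463 to 20127588, had 29, 0 and 8 reads. Junctions that differ by a few bases may have been placed differently between libraries, which was not tested.

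Reads of overlapping circRNAs changed some calls. Among the 53 higher circRNAs, 20 had another circRNA that overlapped by at least 50% of both spans, and with their reads added 14 of the 20 were still 2-fold above both flanks. The other 6 were not, among them chromosome 8, 16653399 to 16666779, where the summed reads were 9, 155 and 94 at 8, 24 and 48 hpf, mostly from the neighbouring 16656395 to 16668464 with 5, 95 and 94 reads. Chromosome 5, 31668487 to 31686045, also dropped out, with 15 reads of its own at 24 hpf but 63 summed reads at 24 hpf and 126 at 48 hpf. Among the 76 lower circRNAs 13 had such a neighbour, and 5 of the 13 were no longer 2-fold below both flanks. On chromosome 9, 28456306 to 28460457 (18, 20 and 46 reads) shares its end with the lower 28457670 to 28460457, and the summed reads were 29, 20 and 59. With overlapping reads added, 47 of the 53 higher and 71 of the 76 lower circRNAs still met the 2-fold rule. Those without such a neighbour are counted here, and their calls could not change. A circRNA of like span (within 5%) lay within 100 kb in a flanking library for 10 of the 53 higher circRNAs, and in the 24 hpf library for 2 of the 76 lower ones. The sets cannot be compared by these counts, because the searches differed in size. For the higher set both flanking libraries were searched, with 3045 circRNAs listed at 8 hpf and 2547 at 48 hpf. For the lower set only the 24 hpf library was searched, with 1834 listed. No such count was made for the whole compared set.

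The libraries at 4.5 and 72 hpf, which the calls did not use, listed a smaller share of the higher circRNAs than of the others, with intervals that overlap. At 4.5 hpf 34.0% of the 53 higher were listed (95% exact interval 21.5 to 48.3), 40.8% of the 76 lower (29.6 to 52.7) and 48.5% of the other 480 (44.0 to 53.1). At 72 hpf the shares were 39.6% (26.5 to 54.0), 46.1% (34.5 to 57.9) and 56.2% (51.7 to 60.7). The 23 circRNAs listed at 24 hpf but not at the flanks had 1 member in the 4.5 hpf list (4.35%, 0.110 to 21.9) and 4 in the 72 hpf list (17.4%, 4.95 to 38.8), while of the 30 listed at a flank 17 were listed at 4.5 hpf and 17 at 72 hpf. Of the 75 circRNAs that 8 hpf alone of the 3 stages listed, 33 were in the 4.5 hpf list (44.0%, 32.5 to 55.9) and 15 in the 72 hpf list (11.6 to 30.8 as the percent interval). Of the 61 that 48 hpf alone listed, 2 were in the 4.5 hpf list (3.28%, 0.400 to 11.3) and 22 in the 72 hpf list (36.1%, 24.2 to 49.4). The share of the 23 was below that of the 75 at 4.5 hpf, with intervals that do not overlap, but 8 hpf is the stage next to 4.5 hpf. The 61 had a similarly low share there, so this is not particular to 24 hpf. In the other comparisons of the 23 with these groups the intervals overlapped. All these intervals treat circRNAs as independent, which was not tested. Of the 65 lower circRNAs that 24 hpf did not list, 24 were listed at 4.5 hpf and 27 at 72 hpf.

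**Figure D5:**
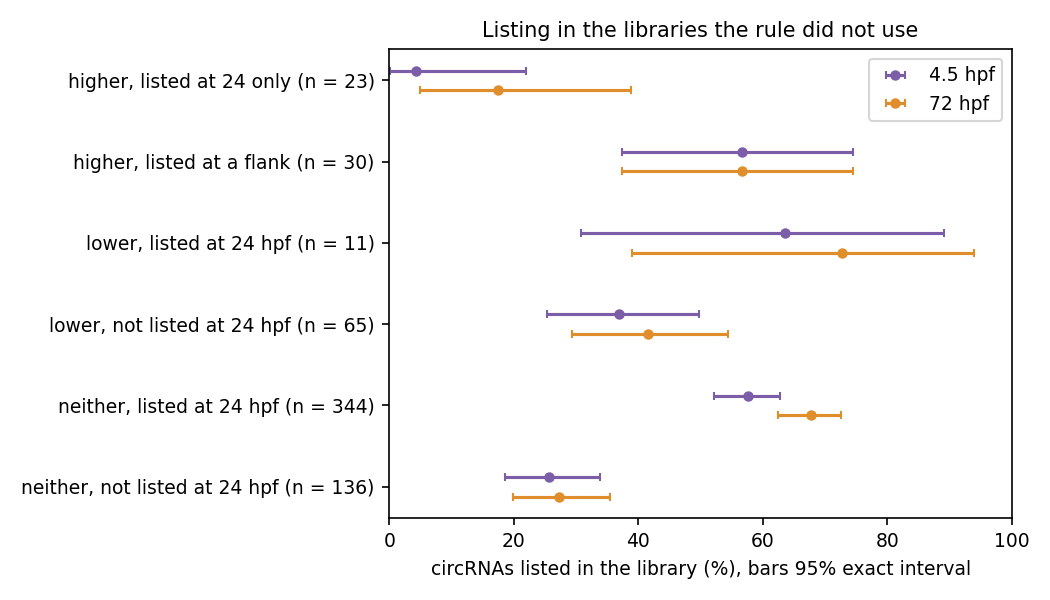
Points give the percentage of circRNAs in each class (vertical axis, with its number) that were listed in the 4.5 hpf and the 72 hpf library, and bars give the exact 95% interval. Higher circRNAs listed at 24 hpf alone have the lowest shares, 1 and 4 of 23, and those also listed at a flank reach 17 of 30 at both stages.

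Over all 5 stages, 42 of the 53 higher circRNAs had their highest level at 24 hpf, 9 at 4.5 hpf and 2 at 72 hpf. Of all 609 circRNAs, 408 were listed at 24 hpf and so could have it there, and 70 did. The call itself leaves no higher circRNA with its highest level at 8 or 48 hpf. At 24 hpf 36 of the 53 were also at least 2-fold above both 4.5 and 72 hpf, against 100 of the 408 listed at 24 hpf. Of the 76 lower circRNAs, 14 had their lowest level at 24 hpf with reads listed at all other 4 stages, against 40 of all 609. These counts rest on the same 24 hpf reads as the calls and are given as description.

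The same rule was applied to the other 2 stages with a stage on either side. At 8 hpf, against 4.5 and 24 hpf, 102 of 685 circRNAs (14.9%) were higher than both flanks and 72 (10.5%) lower. At 48 hpf, against 24 and 72 hpf, 88 of 564 (15.6%) were higher and 53 (9.40%) lower. Per depth, 24 hpf was the stage with more lower than higher calls, with 41.1% of calls higher against 58.6% at 8 hpf and 62.4% at 48 hpf. The comparisons share libraries and have no replicates, so the difference was not tested. Scaled to junction read totals, the shares were 62.6% at 24 hpf, 43.5% at 8 hpf and 65.7% at 48 hpf, and 24 hpf no longer stood out. With scaffold KN150127.1 left out of the totals, the share at 24 hpf was 55.3%, and the other 2 stages were not recomputed.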

How the data were processed

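Back-splice junction read counts were deposited per library, and per the file headers they are raw counts. The authors' SRPBM score came from the deposited series table, which holds 1829 circRNAs listed in at least 2 libraries; its counts had 0 mismatches with the library tables. Per the submitters' processing notes, the tools included edgeR 3.12.1 and BWA 0.7.5a-r405, with no role stated. The sources used here name neither caller nor build.

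Library tables were joined on chromosome, start and end, and counts were multiplied by the SRPBM-per-read constant. Depth is 1e+09 divided by that constant and by 150. An unlisted count was 0. Lower calls needed reads at both flanks, since 0 is not below 0. Ratios carry exact conditional 95% Poisson intervals; bounds set unlisted counts at 3 reads. Median spans carry order-statistic intervals and listing shares exact Clopper-Pearson intervals, both of which treat circRNAs as independent draws. Ratio intervals cover counting error only. Without molecular identifiers, reads are not separate molecules, and intervals can be too narrow.

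Named circRNAs were the 10 higher and 10 lower whose interval bound nearest 1, with unlisted counts at 1 read, lay farthest from 1. To these came the first 5 of each set listed at all 3 stages, the 5 with most reads at 24 hpf and the 5 steady ones with most reads. Others were chosen after their values were seen. The sets and rules were chosen with earlier results of these data known.

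Alternatives covered scaling (junction totals; TMM from edgeR 4.0.16 in R 4.3.3), read minimum, fold, unlisted counts, flanks and positions. Python 3.11.15, numpy 2.4.6, pandas 2.3.3, scipy 1.17.1 and matplotlib 3.10.9 were used. The calculation was run on simulated Poisson counts as a check of the code. That run does not show how reliable the calls on these data are.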

Additional observations from a re-analysis of the deposited data

How the results depend on the processing

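No paired analysis was possible because each stage had 1 library. The 53 higher and 76 lower circRNAs became 112 higher with junction read totals (83 with scaffold KN150127.1 left out, chosen after the data were seen), 23 and 23 with 20 or more reads, and 166 and 207 with 5 or more. A 4-fold limit left 30 higher, the circRNAs listed in at least 2 of all 5 libraries left 34 higher, and intervals that exclude 1 left 33 and 11. Setting unlisted counts at 3 reads left 21 lower. Against 8 hpf alone the counts were 165 and 225, against 48 hpf alone 157 and 214, and against the mean of both 87 and 289. Counting circRNAs unlisted at 24 hpf and at a flank as lower, also chosen later, gave 212 lower. For the scaling, nothing beyond leaving out that scaffold was tested; the other settings change by construction how many circRNAs can be called. TMM, which moves log2 ratios by 0.29 against 8 hpf and 0.32 against 48 hpf, gave 70 and 72, and summing junctions of like span within 100 kb gave 52 and 81, with 50 of the 53 higher and 75 of the 76 lower in a sum that kept the call and a median span of 9679.5 bp for the higher. With 4.5 and 72 hpf as flanks, also chosen later, 48 of 662 circRNAs were higher and 68 lower. Among them were 34 of the 53 higher and 11 of the 76 lower. The median span of the higher circRNAs was 8091.5 bp with 5 or more reads and 15875.5 bp with a 4-fold limit. It was above that of the lower in 16 of 17 alternatives. These re-cut the same data, several with the same 53 higher circRNAs, so the tally is not independent support. The exception was 8 hpf alone, with 6110 bp for the higher and 7299 bp for the lower; with intervals that exclude 1, the lower median was 2788 bp. The 10 ratios named among circRNAs listed at all 3 stages were also followed under the 2 other scalings. Both scalings raise every ratio, so the 5 higher ones could not reverse. None of the 5 lower ones reversed, but junction read totals took 3 of them inside the 2-fold limit and TMM took 1. Depth limits the lower set most, since 65 of its 76 members had no listed read at 24 hpf.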
